A study of Rattus norvegicus with 6 samples.

Results

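The collagen chain genes of rat myocardium were compared between 3 sham samples and 3 samples with 30 min of ischemia. They were chosen by name, as every gene whose symbol consists of Col, a type number, the letter a and a chain number. This rule found 42 of the 32623 genes in the table: 10 chains of fibrillar collagens, 6 of the basement membrane network (type IV), 5 of beaded filaments (type VI), 3 of hexagonal networks, 9 of fibril-associated collagens, 1 of anchoring fibrils, 2 of multiplexins, 4 of transmembrane collagens and 2 other chains. Col1a2, Col6a3 and Col21a1 were not analysed here.

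All rats carried the wild-type genotype and were described as male. Both groups are labelled 30 min. In the ischemia group the left anterior descending coronary artery was tied over a tube after a left thoracotomy under anesthesia and ventilation, and for the sham group no ligation is described. Strain, age and the part of the myocardium that was sampled are not given in the labels, which name each sample separately without saying that each came from 1 animal. P-values therefore measure the spread between these samples. Levels are given as FPKM, which is scaled to gene length and library size. For cardiac troponin T (Tnnt2) it was 5189, 6231 and 4482 in sham 1, 2 and 3. In ischemia 1, 2 and 3 it was 5694, 2564 and 4389.7. The cardiomyocyte markers Myl2 and Myl3 were uneven among the sham samples. Myl2 had an FPKM of 366, 2795 and 346 in sham and 1315, 594 and 1238 in ischemia. Myl3 had 796, 9024 and 1021 in sham and 5691, 3180 and 5780 in ischemia.

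Collagens are proteins in which 3 polypeptide chains wind into a triple helix, and each kind of chain is encoded by its own gene. Fibrillar collagens, in the heart mainly types I and III, form the fibers that bundle cardiomyocytes and are made mainly by fibroblasts. Type IV collagen forms the sheet-like network of basement membranes around cardiomyocytes, capillaries and mural cells. Type VI collagen forms microfilaments between the basement membrane and the fibers. Fibril-associated collagens sit on fiber surfaces, and multiplexins sit in basement membranes.

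Some samples stood apart. For 3 genes of the Y chromosome, sham 1 held 26 counts while each other sample held 1772 to 4318, which goes against the description as male. Atrial genes were abundant in sham 1 and 3 and scarce in sham 2, with the atrial light chain gene Myl7 at an FPKM of 6530.1, 117 and 3541 in sham 1, 2 and 3 and 764, 10 and 12.3 in ischemia 1, 2 and 3. Total counts were 68529126 to 79591989 per sample, and mitochondrial genes took 15.4 to 21.4% of them. Values without sham 1, without sham 3, and with sham 2 as the only sham sample are therefore given for the called chains, for the counts and for other chains named with a fold change, in some cases with only 1 or 2 of these settings.

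The first question was which collagen chains differed after ischemia. Col4a4 of basement membranes, the fiber-surface chain Col14a1 and the multiplexin Col15a1 fell, while Col4a1, Col4a2, Col8a1, Col12a1 and Col18a1 had positive log2 fold changes that did not pass the test. Of the 42 chains, 26 had a mean FPKM of at least 0.5 and were tested, with the lowest tested chain at a mean FPKM of 0.664 and the highest untested one at 0.313. With edgeR's quasi-likelihood test, 3 of the 26 (11.5%) fell at an adjusted p-value under 0.05, where 1.53% of all 13964 tested genes fell. No chain rose by edgeR, where 5.18% of all genes rose. DESeq2 called 11 chains lower and 1 higher, and it also called 12.5% of all genes lower and 14.8% higher. Its lower chains were Col1a1, Col3a1, Col4a3, Col4a4, Col4a5, Col4a6, Col6a6, Col8a2, Col11a2, Col14a1 and Col15a1, and its higher chain was Col18a1. At an unadjusted edgeR p under 0.05, 11 chains were lower (42.3%, against 14.2% of all genes) and 2 were higher (7.69%, against 18.2%).

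The 26 chains had a median log2 fold change of -0.75, and all tested genes had a median of -0.0015. Of the 26, 19 (73.1%) had a negative value, against 50.1% of all genes. In 10 chains (38.5%) every ischemia FPKM lay below every sham FPKM, as in 15.0% of all genes. These were Col1a1, Col3a1, Col4a3, Col4a4, Col4a5, Col4a6, Col6a6, Col8a2, Col14a1 and Col15a1. In none of the 26 tested chains did every ischemia FPKM lie above every sham FPKM, as it did in 23.6% of all genes. A log2 fold change below -2 with an unadjusted p under 0.01 was found in 5 chains (19.2%), Col4a4, Col4a5, Col6a6, Col8a2 and Col14a1, and in 1.34% of all genes. No chain passed the same rule upward, which 3.31% of all genes did.

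These calls did not hold without single samples. No chain, and no tested gene, had an adjusted p under 0.05 when sham 1, sham 2, sham 3 or ischemia 3 was left out. At an unadjusted p under 0.05, 7 to 12 of the 26 chains were then lower and 0 to 3 higher. Of all 13964 tested genes, 3020 to 3809 had such a p, with both directions counted together. Without ischemia 2 only Col4a4 passed, where 109 of all genes were lower and 462 higher. When ischemia 1 was left out 10 chains were lower and 1 (Col18a1) was higher, and the calls over all genes also grew, to 1115 lower (7.98%) and 1490 higher (10.7%). The 10 chains were those called lower by DESeq2 except Col1a1 and Col11a2, with Col28a1 in addition. The median over the chains was -0.81 without sham 1, -0.65 without sham 3 and -0.68 with sham 2 as the only sham sample. Tested chains whose ischemia values all lay below sham then numbered 13, 10 and 13, against 17.1%, 16.7% and 23.7% of all genes. Tested chains whose ischemia values all lay above sham numbered 0, 3 and 5, against 27.6%, 28.3% and 50.6% of all genes. The 3 chains without sham 3 were Col8a1, Col12a1 and Col18a1.

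**Figure D1:**
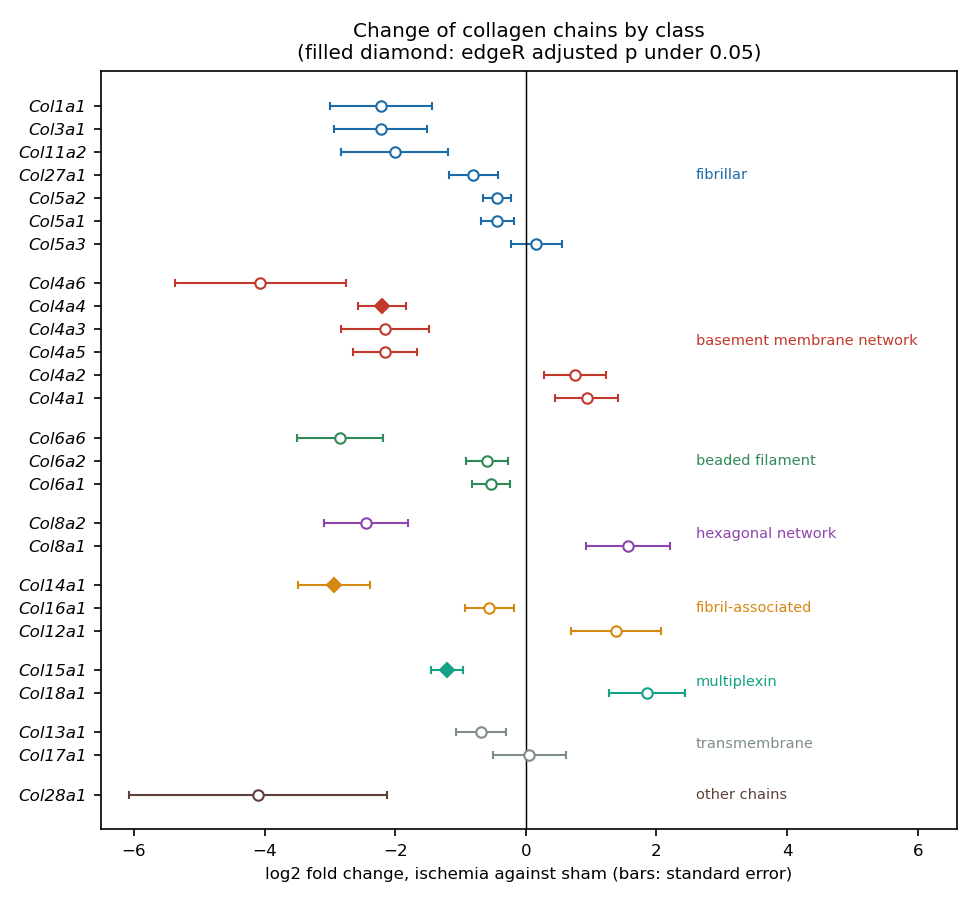
Log2 fold change of ischemia against sham (horizontal axis) for the 26 tested collagen chains, grouped by class, from 3 samples a group. Points are edgeR estimates and bars are standard errors. Filled diamonds mark Col4a4, Col14a1 and Col15a1, the chains with an adjusted p under 0.05, and 19 of the 26 points lie left of 0.

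Sham 3 held the highest value of 19 of the 26 tested chains and of 30 of all 42, while it was the highest sample in 15.8% of all tested genes. Summed over the 42 chains, FPKM was 939, 1032 and 2195 in sham 1, 2 and 3 and 869, 746 and 828 in ischemia 1, 2 and 3. All ischemia sums lay below all sham sums, but sham 1 and 2 were close to the ischemia samples and sham 3 was far above them. The chains took 0.480, 0.541 and 1.14% of all counts in sham and 0.457, 0.421 and 0.456% in ischemia. With 3 samples against 3 an exact permutation test cannot give a p under 0.1, so sums and shares are given without a test.

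**Figure D2:**
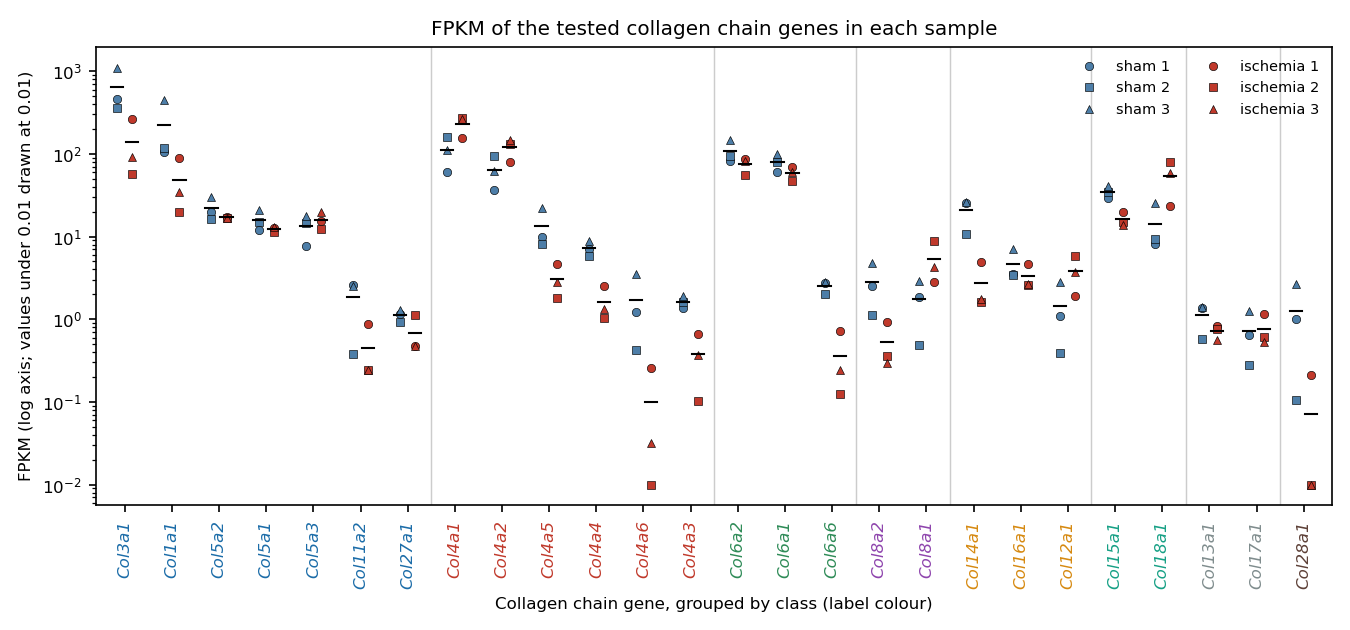
FPKM (log axis) of the 26 tested collagen chains in each sample, grouped by class and ordered by the sham mean. Symbols are single samples, black bars are group means, and values under 0.01 are drawn at 0.01. Col3a1 has the highest sham mean and Col4a1 the highest ischemia mean, and sham 3 is the highest sample in 19 chains.

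The makeup of the collagen transcripts differed between the groups as well. Fibrillar chains took 64.2, 50.6 and 73.6% of the summed collagen FPKM in sham 1, 2 and 3 and 46.6, 15.9 and 21.4% in ischemia 1, 2 and 3. Type IV chains took 12.3, 26.4 and 9.47% in sham and 28.2, 54.8 and 50.7% in ischemia. Behind these shares, the summed FPKM was 603, 522 and 1616 for fibrillar chains in sham, above the 405, 119 and 177 of ischemia. For type IV chains it was 116, 272 and 208 in sham, which overlapped the 245, 409 and 419 of ischemia. Neither share overlapped between the groups, although ischemia 1 (46.6% fibrillar) lay close to sham 2 (50.6%). Type VI chains took 15.4, 17.1 and 11.4% in sham and 18.1, 13.6 and 17.2% in ischemia, which overlapped. Multiplexins took 3.98, 4.27 and 3.04% in sham and 4.995, 12.7 and 8.85% in ischemia, which did not overlap, while their summed FPKM of 37.4, 44 and 66.8 in sham overlapped with the 43.4, 95.01 and 73.3 of ischemia. Col3a1 was the most abundant chain in every sham sample and in ischemia 1, and Col4a1 was the most abundant in ischemia 2 and 3.

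**Figure D3:**
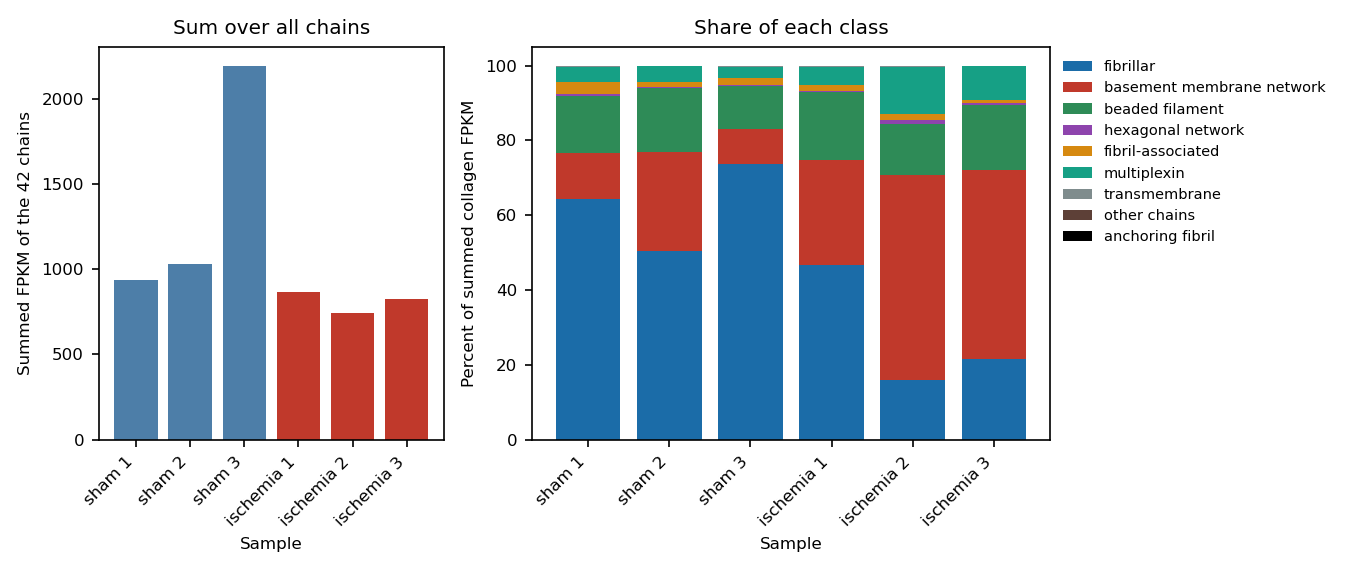
Left, FPKM summed over the 42 collagen chains in each sample. Right, percent of that sum in each class, stacked to 100%. The fibrillar share is 50.6 to 73.6% in sham and 15.9 to 46.6% in ischemia, and the type IV share (basement membrane network) is 9.47 to 26.4% in sham and 28.2 to 54.8% in ischemia.

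Fibrillar chains of types I and III were lower in every ischemia sample than in any sham sample, and those of type V overlapped between the groups. Col3a1, the single chain of the homotrimeric type III collagen, had an FPKM of 456, 354 and 1098 in sham 1, 2 and 3 and 268, 56.7 and 92.1 in ischemia 1, 2 and 3. Col1a1, a chain of type I collagen, had an FPKM of 104, 119 and 443 in sham and 90.2, 19.8 and 34.9 in ischemia. In neither gene did the groups overlap, but sham 3 was well above the other sham samples, and ischemia 1 was the ischemia sample closest to sham. The edgeR log2 fold changes were -2.22 ± 0.71 (SE) for Col3a1, with an adjusted p of 0.0969, and -2.22 ± 0.78 for Col1a1, with an adjusted p of 0.116. Neither passed, while DESeq2 gave 0.00519 and 0.0117. Without ischemia 1 the log2 fold changes were -3.13 and -3.05, and edgeR's adjusted p-values were 0.0316, a call, and 0.0523. Without sham 3 the fold changes were -1.66 and -1.36, without sham 1 -2.43 and -2.57, and with sham 2 as the only sham sample -1.64 and -1.58. The FPKM ratio of Col3a1 to Col1a1 was 4.36, 2.98 and 2.48 in sham and 2.97, 2.87 and 2.64 in ischemia, and its ranges overlapped.

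The type V chains take part in the nucleation of type I fibers. Col5a1 had an FPKM of 11.9, 15.1 and 20.8 in sham and 12.9, 11.4 and 13.1 in ischemia, and Col5a2 of 19.6, 16.5 and 30.1 in sham and 17.2, 16.9 and 16.9 in ischemia. Their groups overlapped, and the 3 ischemia values of Col5a2 lay within 16.9 and 17.2. The log2 fold changes were -0.44 ± 0.25 for Col5a1 and -0.44 ± 0.21 for Col5a2, and edgeR gave adjusted p-values of 0.262 and 0.201. With sham 2 alone the fold changes were -0.57 and -0.26. Col5a3, at 7.60, 14.8 and 17.7 in sham and 15.6, 12.3 and 19.6 in ischemia, had the highest log2 fold change of the class, 0.16 ± 0.39, and its sign changed without sham 1 (-0.15) and with sham 2 alone (-0.18). The other 2 tested fibrillar chains were present at a low level. Col11a2 had an FPKM of 2.62, 0.380 and 2.52 in sham and 0.882, 0.240 and 0.243 in ischemia and a log2 fold change of -2.01 ± 0.82, which became -0.03 with sham 2 as the only sham sample. Col27a1 had an FPKM of 1.15, 0.914 and 1.30 in sham and 0.474, 1.12 and 0.477 in ischemia, with a log2 fold change of -0.80 ± 0.37 (-0.74 with sham 2 alone). The 7 tested fibrillar chains had a median log2 fold change of -0.80, and 0 of 7 passed, with 3 below an unadjusted p of 0.05.

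The 6 type IV chains are encoded as 3 pairs of neighboring genes that are read in opposite directions from a shared stretch of DNA. The chains encoded by Col4a1 and Col4a2 assemble into the common form of type IV collagen, those of Col4a3, Col4a4 and Col4a5 into a form known from the kidney glomerulus, and those of Col4a5 and Col4a6 into a form known from smooth muscle. In the RefSeq sequences of the rat genome build GRCr8, 76 bases lie between the starts of Col4a2 and Col4a1, 412 between those of Col4a4 and Col4a3, and 1414 between those of Col4a6 and Col4a5. The stretches before these starts are shown because the chains of the first pair and the other 4 chains had log2 fold changes of opposite sign. Each of the 4 single-gene stretches is the 100 bases before the gene's start, 5′ to 3′ on its own strand. The first stretch is the whole interval on the plus strand. Capitals mark the letters GGGCGG or their reverse complement CCGCCC, known as the GC box.
Col4a2 to Col4a1 interval, chr16:84885521-84885596, plus strand: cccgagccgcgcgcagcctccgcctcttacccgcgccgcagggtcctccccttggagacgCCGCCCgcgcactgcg
Col4a4, chr9:91323578-91323677, minus strand: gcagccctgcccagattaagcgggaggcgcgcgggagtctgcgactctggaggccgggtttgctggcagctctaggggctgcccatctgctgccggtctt
Col4a3, chr9:91323890-91323989, plus strand: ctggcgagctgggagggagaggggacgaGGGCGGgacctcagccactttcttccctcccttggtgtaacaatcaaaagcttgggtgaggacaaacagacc
Col4a6, chrX:109905945-109906044, minus strand: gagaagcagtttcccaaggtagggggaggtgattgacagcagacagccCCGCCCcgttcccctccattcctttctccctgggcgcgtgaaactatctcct
Col4a5, chrX:109907259-109907358, plus strand: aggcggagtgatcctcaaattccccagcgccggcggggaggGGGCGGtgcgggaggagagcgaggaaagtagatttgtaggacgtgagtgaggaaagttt
RefSeq held the start region of 33 of the 42 chains, as windows of 300 bases from 250 before to 50 after each start. On either strand, the GC box was in 57.6% of these 33 windows and in 33.1% of all 33469 windows of this length. The letters CCAAT were in 30.3% and 37.5%, and TATAAA in 9.09% and 14.2%. Among the type IV genes, CCAAT was found in the windows of Col4a1 and Col4a2, the GC box in the windows of all but Col4a4, and TATAAA in none. None of the 3 motifs contains another. A match is a description of the letters and not a bound site.

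The type IV chains split by the sign of their fold change. Col4a1 had an FPKM of 59.9, 161 and 110.2 in sham 1, 2 and 3 and 157, 274 and 267 in ischemia 1, 2 and 3, and Col4a2 of 36.4, 95.4 and 61.4 in sham and 80.3, 132 and 148 in ischemia. Both were lowest in sham 1 and highest in ischemia 2 or 3, and in both ischemia 1 lay below sham 2. Their log2 fold changes were 0.93 ± 0.48 and 0.75 ± 0.48, for which edgeR gave adjusted p-values of 0.226 and 0.305. They were 0.23 and 0.03 with sham 2 as the only sham sample. The FPKM ratio of Col4a1 to Col4a2 was 1.65, 1.69 and 1.79 in sham, and every ischemia ratio (1.95, 2.08 and 1.81) lay above these.

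The other 4 type IV chains were lower in every ischemia sample than in every sham sample. Col4a4, which was called, had an FPKM of 7.10, 5.75 and 8.77 in sham and 2.49, 1.05 and 1.34 in ischemia, a log2 fold change of -2.21 ± 0.37 and an adjusted p of 0.0351. Its fold change was -2.25 without sham 1, -2.11 without sham 3 and -2.11 with sham 2 alone, with adjusted p-values of 0.158, 0.131 and 0.394. The call was lost each time, while the fold change moved by less than its standard error. Its neighbor Col4a3 had an FPKM of 1.35, 1.62 and 1.90 in sham and 0.667, 0.102 and 0.370 in ischemia and a log2 fold change of -2.16 ± 0.67, with an adjusted p of 0.0922, and the fold change was -2.37 with sham 2 alone. Col4a5 had an FPKM of 9.88, 8.17 and 22.01 in sham and 4.62, 1.79 and 2.81 in ischemia, with a log2 fold change of -2.15 ± 0.49 and an adjusted p of 0.0511. Its fold change was -1.68 without sham 3 and -1.70 with sham 2 alone. Col4a6, the lowest log2 fold change of the class at -4.06 ± 1.31 with an adjusted p of 0.0986, had an FPKM of 1.23, 0.423 and 3.50 in sham and 0.258, 0.00968 and 0.0322 in ischemia. It rested on 464, 170 and 1255 counts in sham and 105, 4 and 12 in ischemia, and its log2 fold change was -2.34 with sham 2 as the only sham sample and -6.24 without ischemia 1. Its adjusted p was 0.0285 by edgeR without ischemia 1 and 0.00243 by DESeq2 with all samples.

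Together, Col4a3 to Col4a6 made up 16.9, 5.86 and 17.4% of type IV FPKM in sham 1, 2 and 3 and 3.28, 0.721 and 1.09% in ischemia 1, 2 and 3. Sham 2, the sham sample with few atrial transcripts, had the lowest sham share, and no ischemia share overlapped with sham. The median log2 fold change over the class was -2.16, and 1 of 6 chains was lower. Among chains with a mean FPKM of at least 5, which kept Col4a1, Col4a2 and Col4a5 only, the median turned to 0.72.

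**Figure D4:**
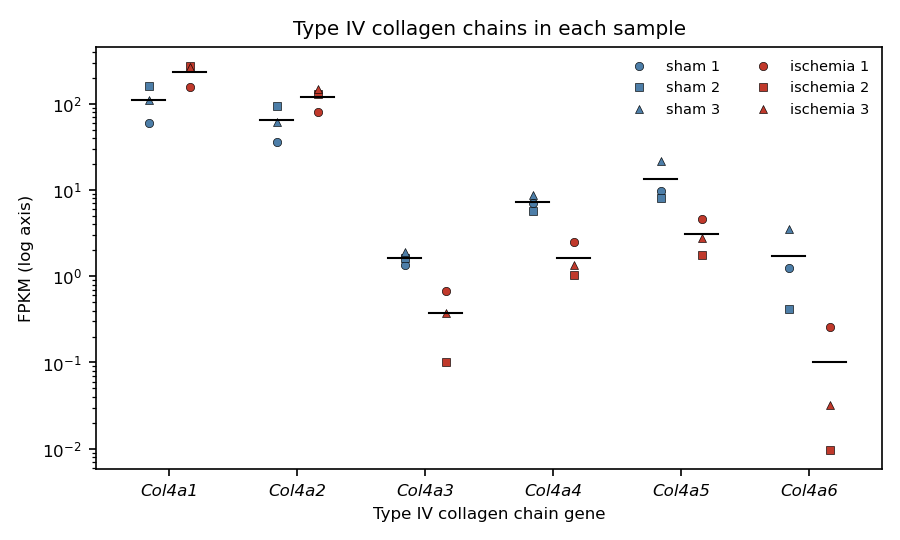
FPKM (log axis) of the 6 type IV collagen chains in each sample. Symbols are single samples and black bars are group means. Ischemia values of Col4a3, Col4a4, Col4a5 and Col4a6 lie below all sham values, and those of Col4a1 and Col4a2 overlap with sham.

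No type VI or hexagonal network chain passed the test. Col6a1 and Col6a2, the common chains of type VI collagen, were among the most abundant. Col6a1 had an FPKM of 60.3, 79.9 and 99.9 in sham and 68.6, 46.8 and 61.2 in ischemia, and Col6a2 of 81.4, 94.1 and 148 in sham and 87.8, 54.8 and 81.3 in ischemia. Both overlapped between the groups, with log2 fold changes of -0.53 ± 0.29 and -0.60 ± 0.32 for which edgeR gave adjusted p-values of 0.246 and 0.239. They were -0.73 and -0.62 when sham 2 stood alone. Col6a6, a later described chain of the same type, had an FPKM of 2.71, 2.02 and 2.86 in sham and 0.718, 0.125 and 0.247 in ischemia, so that ischemia lay below sham in every sample. Its log2 fold change of -2.85 ± 0.66 had an adjusted p of 0.0523, just above the threshold, and was -2.75 with sham 2 alone.

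Col8a1 and Col8a2 encode the chains of type VIII collagen, a short-chain network collagen of vessel walls and endothelium. Col8a1 had an FPKM of 1.86, 0.483 and 2.93 in sham and 2.81, 8.90 and 4.30 in ischemia, and Col8a2 of 2.55, 1.13 and 4.81 in sham and 0.917, 0.357 and 0.299 in ischemia. Col8a1 in ischemia 1 lay just below sham 3, whereas Col8a2 in every ischemia sample lay below every sham sample. The log2 fold changes had opposite signs, 1.56 ± 0.64 for Col8a1 and -2.45 ± 0.64 for Col8a2, and the adjusted p-values from edgeR were 0.152 and 0.0657. With sham 2 as the only sham sample they were 3.13 and -1.40.

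Among the fibril-associated chains Col14a1 fell, and the related Col12a1 had the highest log2 fold change of the class. Types XII and XIV are both fiber-surface collagens of similar domain structure. Col14a1 had an FPKM of 25.2, 10.9 and 26.4 in sham and 4.97, 1.60 and 1.75 in ischemia, with all ischemia samples below all sham samples and sham 2 below sham 1 and 3. Its log2 fold change was -2.94 ± 0.56, a level 7.66-fold higher in sham, with an adjusted p of 0.0398 by edgeR. Without sham 1 it was -2.81, without sham 3 -2.78 and with sham 2 alone -2.26, and its adjusted p was then 0.160, 0.140 and 0.394.

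Col12a1 had an FPKM of 1.09, 0.390 and 2.82 in sham and 1.89, 5.87 and 3.72 in ischemia. Ischemia 1 lay below sham 3, so the groups overlapped, and the log2 fold change of 1.38 ± 0.68 had an adjusted p of 0.208. It was 2.26 without sham 3 and 2.97 with sham 2 alone. The FPKM ratio of Col12a1 to Col14a1 was 0.0434, 0.0359 and 0.107 in sham and 0.379, 3.66 and 2.12 in ischemia, so that Col12a1 exceeded Col14a1 in ischemia 2 and 3 alone. Col16a1 overlapped between the groups, with an FPKM of 3.55, 3.41 and 7.13 in sham and 4.69, 2.61 and 2.65 in ischemia and a log2 fold change of -0.56 ± 0.37, which was -0.34 with sham 2 alone.

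The multiplexins, types XV and XVIII, carry the anti-angiogenic fragments restin and endostatin at their ends. Col15a1 fell, with an FPKM of 29.3, 34.6 and 41.2 in sham and 19.96, 14.9 and 13.8 in ischemia. It was the chain with the smallest standard error among the 3 called ones, and all ischemia samples lay below all sham samples. Its log2 fold change was -1.21 ± 0.25 (adjusted p from edgeR 0.0445). It was -1.36 without sham 1, -1.15 without sham 3 and -1.39 with sham 2 alone, with adjusted p-values of 0.158, 0.141 and 0.394.

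Col18a1 had the highest log2 fold change of all tested chains. Its FPKM was 8.03, 9.41 and 25.6 in sham and 23.4, 80.1 and 59.5 in ischemia, and only ischemia 1 and sham 3 overlapped. The log2 fold change of 1.85 ± 0.58 had an edgeR adjusted p of 0.0932, and of 0.0103 with DESeq2. It was 2.46 without sham 3 and 1.55 without sham 1, and 2.21 with sham 2 alone. The FPKM ratio of Col18a1 to Col15a1 was 0.274, 0.272 and 0.621 in sham and 1.17, 5.39 and 4.33 in ischemia, without overlap.

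The transmembrane chains and the remaining tested chain were low. Col13a1, a chain of cell junctions with the matrix, had an FPKM of 1.39, 0.580 and 1.40 in sham and 0.828, 0.765 and 0.560 in ischemia, with a log2 fold change of -0.69 ± 0.38 that became -0.0040 with sham 2 alone. Col17a1, the hemidesmosome collagen of epithelia, had 0.652, 0.276 and 1.26 in sham and 1.16, 0.607 and 0.532 in ischemia. Its log2 fold change of 0.05 ± 0.56 changed sign without sham 1 (-0.04). It was 1.17 with sham 2 alone and 1.03 with the mean level of atrial markers as a covariate. Col28a1, a collagen known from peripheral nerve, had 262, 30 and 664 counts in sham and 60, 0 and 0 in ischemia. Its log2 fold change of -4.10 ± 1.98 had the widest standard error of all chains and an adjusted p of 0.200, and was -0.88 with sham 2 alone. Without ischemia 1 it was -11.29 and passed (edgeR adjusted p 0.0439), but both remaining ischemia samples were then at 0 counts, so this fitted value depends on the prior count and is no measure of size.

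The 16 untested chains were mostly seen in sham 3. Col2a1, the main fibrillar chain of cartilage, had 4, 43 and 508 counts in sham 1, 2 and 3 and none in ischemia. Col10a1, of hypertrophic cartilage, had 0, 0 and 149 counts in sham and none in ischemia. Col11a1 had 22, 19 and 367 counts in sham and 28, 64 and 21 in ischemia, and Col9a3 had 53, 18 and 176 in sham and 27, 7 and 8 in ischemia. Sham 3 was the highest sample for each of these chains. The 10 cartilage markers (such as Acan, Matn1 and Comp) moved with them, with a summed FPKM of 3.09, 2.32 and 25.3 in sham and 3.10, 1.90 and 1.57 in ischemia. Among them, 5 were tested and had a median log2 fold change of -2.58 and no call, with 2 lower at an unadjusted p under 0.05. With sham 2 as the only sham sample, the log2 fold changes of Comp (2.55) and Chad (0.60) were positive. Those of Cnmd (-2.61), Ucma (-1.98) and Sox9 (-0.87) stayed negative. Acan had 0, 0 and 281 counts in sham and 19, 0 and 0 in ischemia, and Matn1 had 48 counts in sham 3 and 0 in each other sample. In all, 5 chains had no counts in any ischemia sample (Col2a1, Col9a1, Col10a1, Col19a1 and Col26a1). A count of 0 allows up to 3 counts, or a CPM (counts scaled to library size) of 0.0377 to 0.0438, which covers counting error only.

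**Figure D5:**
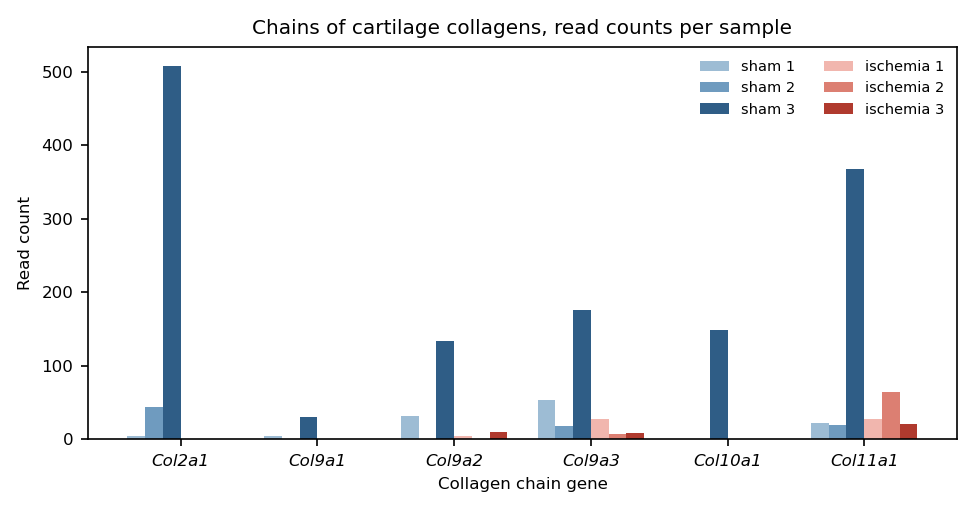
Read counts of 6 untested collagen chains known from cartilage in each sample, with bars starting at 0. Sham 3 has the highest count for each chain, up to 508 for Col2a1, and ischemia samples have at most 64.

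Col7a1, the only chain of anchoring fibrils, ran the other way. It had 43, 56 and 132 counts in sham and 166, 177 and 317 in ischemia, and its FPKM of 0.0613, 0.0741 and 0.198 in sham lay below the 0.220, 0.256 and 0.486 of ischemia in every sample. It was too low to be tested.

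The second question was whether genes that process, cross-link or bind collagen differed. In 4 lists with 46 genes, 43 were in the table and 37 were tested. Of these, 3 rose and 2 fell at an edgeR adjusted p under 0.05, against background shares of 5.18% and 1.53%, and the median log2 fold change was 0.13. The calls rested on few samples as those of the chains did, and 0 genes passed when any sham sample, ischemia 2 or ischemia 3 was left out. At an unadjusted p under 0.05, 3 to 6 of the 37 were then lower and 7 to 10 higher. Of all 13964 tested genes, 3020 to 3809 had such a p in either direction.

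Of 21 tested genes for modification, folding and export of procollagen, 1 rose and 1 fell. Plod3, a lysyl hydroxylase that also adds glucose to collagen, rose from an FPKM of 16.5, 12.4 and 19.8 in sham to 29.4, 35.96 and 30.8 in ischemia, with a log2 fold change of 0.91 ± 0.16 and an adjusted p of 0.0377. Colgalt2, a galactosyltransferase for collagen, fell from 2.65, 2.83 and 2.11 to 0.884, 0.962 and 0.996, with a log2 fold change of -1.52 ± 0.32 and an adjusted p of 0.0470. Neither gene overlapped between the groups. Every ischemia value lay above every sham value in 6 of the 21 (28.6%), a share near the 23.6% of all genes. Among these, the prolyl hydroxylase subunit and disulfide isomerase P4hb had an FPKM of 194, 151 and 189 in sham and 336, 564 and 332 in ischemia, with an adjusted p of 0.0504. The collagen chaperone Serpinh1 had 239.9, 235 and 296 in sham and 432, 528 and 407 in ischemia, with an adjusted p of 0.0748. These 2 genes, named after their values were seen, did not pass.

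Of 5 tested genes for propeptide removal, 1 fell. Adamts2, the proteinase that removes the amino-terminal propeptide of fibrillar procollagens, had an FPKM of 14.8, 14.6 and 26.03 in sham and 8.25, 3.62 and 4.52 in ischemia, with a log2 fold change of -1.82 ± 0.39 and an adjusted p of 0.0487. Of 5 cross-linking enzymes, 1 rose. The lysyl oxidase family member Loxl4 had an FPKM of 0.418, 0.416 and 0.488 in sham and 1.03, 3.99 and 4.24 in ischemia, with a log2 fold change of 2.71 ± 0.56 and an adjusted p of 0.0459. Of 6 tested receptors, 1 rose, and 4 had a negative log2 fold change. The lowest was that of Itga11, -3.14 ± 0.89 with an edgeR adjusted p of 0.0769, a gene named after its values were seen. Itgb1, the beta subunit shared by the collagen-binding integrins and many others, had an FPKM of 97.03, 66.8 and 116 in sham and 173, 383 and 345 in ischemia, with a log2 fold change of 1.62 ± 0.34 and an adjusted p of 0.0478. No sample of 1 group overlapped the other in Adamts2, Loxl4 and Itgb1, and ischemia 1 lay nearest to sham in each. With sham 2 as the only sham sample, the log2 fold changes of the 5 called genes were 1.06 for Plod3, -1.87 for Colgalt2, -1.71 for Adamts2, 2.58 for Loxl4 and 1.86 for Itgb1.

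Markers of cell types were read beside these results, and over all genes 1.53% were called lower, 5.18% were called higher and 50.1% had a negative value. In bulk tissue, fewer cells of a type and less RNA per cell cannot be told apart. All 8 fibroblast markers had a negative log2 fold change, with a median of -2.08, and 1 of them (Pi16) fell. Their summed FPKM was 949, 447 and 1297 in sham 1, 2 and 3 and 513, 245 and 206 in ischemia 1, 2 and 3, so that sham 2 lay below ischemia 1. The members ranged widely, since Pdgfra and Tcf21 had log2 fold changes of -0.50 and -0.47, and Lum and Clec3b of -2.70 and -2.83. With sham 2 as the only sham sample, the log2 fold changes were 0.04 for Pdgfra, -0.08 for Dcn, -0.19 for Tcf21, -1.14 for Dpt, -1.52 for Lum, -1.82 for Pi16, -2.14 for Clec3b and -2.62 for Mfap4. The 9 mural cell markers had a median of -1.27 with 1 lower (Abcc9), and their sum was 937 in sham 3 against 127 to 319 elsewhere. The 7 endothelial markers in the table had a median of 0.08, no call (1 lower and 1 higher at an unadjusted p under 0.05), and a summed FPKM of 215 to 240 in sham and 247 to 271 in ischemia.

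Of the Schwann cell markers, 5 are reported. All 5 had a negative log2 fold change, with a median of -1.81, and 1 of them fell, Mbp, a myelin protein gene. Mbp had an FPKM of 12.2, 6.90 and 15.1 in sham and 2.82, 2.13 and 0.976 in ischemia, a log2 fold change of -2.59 ± 0.43 and an adjusted p of 0.0349 by edgeR, and was -2.12 with sham 2 alone. The summed FPKM of the 5 was 25.6, 55.0 and 79.8 in sham and 17.2, 8.62 and 6.04 in ischemia, so that all ischemia sums lay below all sham sums.

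The 6 epicardial and mesothelial markers had a median of -3.42 and no call, with 2 lower at an unadjusted p under 0.05, and their sum was 51.8 to 113.8 in sham and 5.11 to 33.6 in ischemia. Upk1b and Upk3b had no counts in ischemia 2, and Krt19 had none in ischemia 3. The 6 atrial markers had a median of -3.60 and no call, with 1 lower at an unadjusted p under 0.05, and their sum was 48345, 217 and 39347 in sham and 9612, 2079 and 1280.0 in ischemia. With sham 2 as the only sham sample, the log2 fold changes of Nppa (5.43), Myl4 (4.30), Sln (2.86) and Myl7 (0.88) were positive. Those of Kcna5 (-1.13) and Bmp10 (-1.62) stayed negative. Cardiomyocyte markers, 7 of which were in the table, had a median of -0.59 and no call, with 2 lower at an unadjusted p under 0.05, and their sum was 15129 to 30616 in sham and 9120.2 to 19983 in ischemia. All 7 tested myeloid markers rose, where 5.18% of all genes did, with a sum over 8 markers of 108 to 188 in sham and 1255 to 8393 in ischemia. With the mean level of the atrial markers as a covariate, no collagen chain passed, the median was -0.50, and 20 of 26 chains had a negative value. At an unadjusted p under 0.05, 9 chains were lower and 1 was higher in that fit. Of all 13964 tested genes, 2366 had such a p in either direction. The part of each cell type in the collagen values was not tested.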

How the data were processed

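Total RNA of rat myocardium (3 sham, 3 ischemia samples) had been sequenced by the authors with a strand-specific total RNA kit. The submitters' processing notes name STAR and HTSeq without versions. The genome build is not given in the sources used here, so no positions from the table are printed. The authors deposited 1 table with raw read counts, which are whole numbers and not normalized, and with FPKM values per sample, in which genes without reads stand at 0.0001. Because no counting rule is stated, overlapping genes may have lost or shared reads.

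Tests were limited to genes whose FPKM averaged 0.5 or more across all 6 samples. Counts were scaled by TMM and compared with the quasi-likelihood test of edgeR 4.0.16 (R 4.3.3, limma 3.58.1), without covariates, and p-values were adjusted by Benjamini-Hochberg over all 13964 tested genes (threshold 0.05). A second rule was a log2 fold change beyond 2 with an unadjusted p under 0.01. Standard errors of log2 fold changes came from the test's F statistic. Fold changes are ischemia against sham. FPKM is compared between genes, as it is scaled to length. No pair of libraries of the same group agreed within sampling noise.

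The members, classes and lists (procollagen modification, folding and export, propeptide removal, cross-linking, receptors, and 9 cell type marker lists) were chosen with earlier results of these data known. Of the genes on the marker lists, 1 is not reported here. Chains named were those past the adjusted threshold, the highest and lowest of each class, and main cardiac chains, and chains outside this rule (such as the other type IV chains, Col27a1 and the untested ones) were described after their values were seen. From the other lists, genes past the threshold were named. Crtap, Mia3, Pcolce2, Pecam1 and Ttn were not analysed here. Promoter sequences are from RefSeq (GRCr8). Alternatives were other scalings, filters and tests (DESeq2 1.42.0, limma on log2 FPKM with pseudocounts of 0.1 and 1), the replicate block, each sample left out, an atrial covariate, sham 2 as the only sham sample, and removal of mitochondrial genes. Counts of groups that do not overlap without sham 1 or 3 were added after seeing the data. Figures used matplotlib 3.10.9 with Python 3.11.15.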

Additional observations from a re-analysis of the deposited data

How the results depend on the processing

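Of the 26 tested chains, 24 kept the sign of their log2 fold change under each of the 17 other settings in which they were tested. The exceptions were Col17a1 (0.05), which ranged from -0.41 to 0.63 with 1 sample left out and was negative without sham 1 (-0.04), sham 2 (-0.30) and ischemia 1 (-0.41) but 1.17 with sham 2 as the only sham sample, and Col5a3 (0.16), which ranged from -0.15 to 0.36, with -0.15 without sham 1 and -0.07 without ischemia 3, and was -0.0019 with the atrial covariate and -0.18 with sham 2 as the only sham sample. The number of calls moved more, and the cause was not tested. The 3 lower chains became 11 with DESeq2, 5 with limma on log2(FPKM + 0.1), 0 with the atrial covariate and 0 to 10 with 1 sample left out. They became 2 with total-count scaling and 2 without an expression filter. Col15a1 then lost its call, with edgeR adjusted p-values of 0.0513 and 0.0578. In the fit with sham 2 as the only sham sample, the lone sample is assumed to vary like the ischemia samples. Calls over all genes moved too, from 214 lower and 723 higher to 1742 and 2071 with DESeq2. They were 262 and 850 with limma on log2(FPKM + 0.1), and 0 and 0 with the atrial covariate. With total-count scaling they were 83 and 509. Without a filter, where 20541 genes were tested, they were 93 and 493. Chains that rose went from 0 to 1 with DESeq2 and to 0 or 1 with 1 sample left out. The 5 chains past a log2 fold change of -2 and p of 0.01 became 2 at a mean FPKM of at least 5 and 9 with DESeq2. They became 2 with limma on log2(FPKM + 1), 2 with the atrial covariate and 2 to 9 with 1 sample left out. The share of all genes past this rule was counted in the main fit only (1.34%). These changes are therefore not read as results about the chains. Tested chains with every ischemia value above sham went from 0 to 3 without sham 3 and to 5 with sham 2 alone.

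Without an expression filter the median over 42 chains was -1.94, and the class medians were -1.94 (fibrillar), -1.42 (beaded filament) and -2.59 (fibril-associated). At a mean FPKM of at least 5, where fewer chains were tested, they were -0.49 (fibrillar), 0.72 (type IV) and -3.00 (fibril-associated). With limma on log2(FPKM + 1) they were -0.34 (fibrillar) and -1.05 (type IV). The fibrillar median was -0.46 with the atrial covariate and -1.26 to -0.62 with 1 sample left out. The 2 lower genes of the biosynthesis and receptor lists became 0 with total-count scaling, 0 without a filter, 1 at a mean FPKM of at least 5, 4 with DESeq2, 0 with the atrial covariate, 0 with sham 2 alone and 0 to 3 with 1 sample left out. The 3 higher ones became 1, 1 and 9 with total-count scaling, no filter and DESeq2, 1 with limma on log2(FPKM + 1), 0 with the atrial covariate, 0 with sham 2 alone and 0 to 4 with 1 sample left out.

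The replicate numbers of the titles belong to no stated batch. Deviations of same-numbered samples from their group means had a mean correlation of -0.115, and those of differently numbered samples 0.0553. With 3 samples a group, deviations from a group mean tie these values to each other, so they cannot exclude a pairing. With the replicate number as a block, 0 chains were lower and 0 higher (smallest adjusted p 0.0943), and 0 biosynthesis and receptor genes were lower and 0 higher. At an unadjusted p under 0.05, 12 chains were lower and 2 higher with this block. Of all 13964 tested genes, 3349 had such a p in either direction. The 16 untested chains, left out by their mean FPKM, had at most 508 counts in any sample.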
